A study of Mus musculus with 6 samples.

Results

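The genes examined here are 9 genes of the neutrophil, namely the receptor genes Csf3r, Fpr1 and Fpr2 and the genes of granule or secreted proteins Mpo, Elane, Camp, Ltf, Ngp and Retnlg. Each was taken from the array as the row that carries that gene symbol and no other. By this rule 7 of the 9 were measured, each by 1 row, out of 19938 genes and 35556 rows (transcript clusters) in the whole table. Fpr1 and Fpr2 have no row of their own under the rule and were not analysed here. The question was whether skin of Cbl-b-/- mice held more or less of these transcripts than skin of WT mice 1 day after UVB.

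Dorsal skin was taken from 3 Cbl-b-/- mice, which lack the E3 ubiquitin ligase Cbl-b, and from 3 WT mice, all BL6 animals matched for sex and age. Both genotypes were shaved on the back 1 day earlier, received a single UVB dose of 80 mJ/cm2 and were killed 24 h later. Age is not given in the sources used here, and skin taken before irradiation was not analysed here, so every value below is from irradiated skin. Whole skin RNA of 1 mouse was hybridized to each of the 6 arrays, and levels are normalized log2 values, on which a difference of 1 is a 2-fold difference.

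Neutrophils are short-lived blood granulocytes that enter inflamed skin within hours, drawn by chemokines and bacterial or tissue-derived peptides. They carry granules that are filled in sequence during maturation in the bone marrow: primary granules with myeloperoxidase and serine proteases in promyelocytes, then secondary granules with lactoferrin and cathelicidin, then gelatinase granules. The transcripts of primary and secondary granule proteins are largely shut off before the cell leaves the marrow, whereas receptor genes and the S100a8 and S100a9 genes are transcribed in the mature cell. C/EBP factors and PU.1 are transcription factors known to drive genes of the granulocyte lineage.

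Of the measured genes, Csf3r, Retnlg and Elane were above the background of the arrays, and the 250 bases before their start sites are shown so that the letters known as C/EBP and PU.1 motifs can be seen in them. The sequences are from RefSeq on GRCm38.p6, read 5′ to 3′ on the strand of the gene. The window of Csf3r is chr4:126024409-126024658 (plus strand), that of Retnlg is chr16:48872358-48872607 (plus strand) and that of Elane is chr10:79886062-79886311 (plus strand). Capitals mark matches to TTNNGNAA (C/EBP) or GAGGAA (PU.1), searched on both strands.
Csf3r: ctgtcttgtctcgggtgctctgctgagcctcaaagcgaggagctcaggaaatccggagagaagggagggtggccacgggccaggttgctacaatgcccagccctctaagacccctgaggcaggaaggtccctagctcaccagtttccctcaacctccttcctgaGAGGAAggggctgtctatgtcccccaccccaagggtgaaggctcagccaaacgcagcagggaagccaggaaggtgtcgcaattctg
Retnlg: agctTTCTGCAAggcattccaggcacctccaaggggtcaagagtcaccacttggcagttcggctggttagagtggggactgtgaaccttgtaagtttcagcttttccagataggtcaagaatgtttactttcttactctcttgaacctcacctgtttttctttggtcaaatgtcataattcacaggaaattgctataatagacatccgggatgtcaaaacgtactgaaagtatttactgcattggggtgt
Elane: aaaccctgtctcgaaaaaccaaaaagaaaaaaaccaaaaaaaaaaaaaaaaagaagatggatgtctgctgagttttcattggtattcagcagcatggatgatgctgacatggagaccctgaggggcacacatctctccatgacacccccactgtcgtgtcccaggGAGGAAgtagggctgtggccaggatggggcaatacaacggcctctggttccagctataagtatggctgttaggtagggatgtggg
Csf3r and Elane each hold 1 PU.1 match, 86 and 85 bases before the start, and Retnlg holds 1 C/EBP match, 246 bases before it. A C/EBP match is found in 5 of the 9 genes, and in 36.8% of all 32851 such windows. A PU.1 match is found in 5 of the 9 genes, and in 23.3% of all windows. Both are present in 2 genes, Fpr2 and Ltf, against 8.87% of all windows, and the window of Camp holds neither. These matches describe letters and are not measured sites.

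The members lie on 6 chromosomes. Camp, Ngp and Ltf share chromosome 9, where Camp and Ngp start 0.57 Mb apart and Ngp and Ltf 0.599 Mb apart. Retnlg lies on chromosome 16, 3.16 Mb from the start of Cblb, the gene that was inactivated. Whether the Cbl-b-/- mice carry the same DNA as the WT mice around Retnlg is not given in the sources used here, and its part in the level of Retnlg was not tested.

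Cblb checked the genotype labels. It stood at 8.61, 8.69 and 8.61 in the Cbl-b-/- arrays, against 9.91, 9.66 and 9.72 in the WT arrays. The genotypes did not overlap, and the log2 fold change (Cbl-b-/- minus WT) was −1.12 (standard error, SE, 0.092, adjusted p = 0.0782, limma with Benjamini-Hochberg adjustment over all rows). Array medians ran from 6.30 to 6.34, and correlations between arrays across rows from 0.980 to 0.993, across genes, which are not independent. The value table holds no detection call, so background was read from 1210 rows of olfactory and vomeronasal receptor genes, which skin is not known to express. The 95th percentile of these rows was 5.38 to 5.42 in the Cbl-b-/- arrays and 5.22 to 5.39 in the WT arrays. Taken over the rows' 6-array means, it was 5.34. Cbl-b-/- replicate 2 stood apart in neutrophil markers as the highest array and Cbl-b-/- replicate 3 as the lowest. WT replicate 3 stood apart in markers of the growing hair follicle. Where a call or a list's median turned on Cbl-b-/- replicate 2, the value without it is given too. The same list medians rose when another array was left out, and their ranges are given at the end.

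Csf3r, the receptor for granulocyte colony-stimulating factor, was the receptor gene measured. It stood at 7.93, 9.50 and 7.80 in the Cbl-b-/- arrays, against 8.91, 8.35 and 8.42 in the WT arrays. The highest and the lowest values of all 6 arrays were both from Cbl-b-/- skin, so the genotypes overlapped, with the 3 WT arrays between them. The means were 8.41 ± 0.94 (SD, n = 3) in Cbl-b-/- skin and 8.56 ± 0.31 (SD, n = 3) in WT skin. The log2 fold change was −0.15 (SE 0.45, adjusted p = 0.957, limma). Its 95% confidence interval ran from −1.24 to 0.94, that is, from 0.422 to 1.92 as a ratio, so a difference of nearly that size in either direction would not have been detectable with 3 arrays a group. In whole skin, fewer neutrophils and less RNA per neutrophil cannot be told apart.

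The spread of Csf3r lay within the Cbl-b-/- group. Its 3 Cbl-b-/- arrays covered a 3.23-fold range, against 1.48-fold among the WT arrays, and the SD pooled over the genotypes was above that of 98.4% of the rows above background. Without Cbl-b-/- replicate 2 the log2 fold change of Csf3r was −0.70 (SE 0.19, adjusted p = 0.592, limma), which met the study's thresholds as lower (an unadjusted p under 0.05 and at least a 1.5-fold difference). Without Cbl-b-/- replicate 3 it was 0.15, so its sign changed with the array left out.

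Retnlg, resistin-like gamma, is a secreted protein of the resistin family and in mice is known as a transcript of mature neutrophils. It stood at 6.49, 9.32 and 7.07 in the Cbl-b-/- arrays, against 7.91, 7.04 and 7.07 in the WT arrays. As with Csf3r, Cbl-b-/- replicate 2 was the highest array and the others overlapped, while the lowest was Cbl-b-/- replicate 1. The means were 7.63 ± 1.49 (SD, n = 3) in Cbl-b-/- skin and 7.34 ± 0.49 (SD, n = 3) in WT skin. The log2 fold change was 0.29 (SE 0.71, adjusted p = 0.946, limma), with a 95% confidence interval from −1.43 to 2.00.

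Retnlg covered a 7.08-fold range among the 3 Cbl-b-/- mice and a 1.82-fold range among the 3 WT mice. Its pooled SD was above that of 99.4% of the rows above background. Without Cbl-b-/- replicate 2 its log2 fold change was −0.56 (adjusted p = 0.722, limma), the opposite sign. The 2 other members of the resistin family that were above background did not follow it. Retn, resistin, which fat cells express in mice, stood at 9.70, 7.74 and 9.81 in the Cbl-b-/- arrays, against 10.13, 9.47 and 9.37 in the WT arrays. Retn was thus lowest in the array where Retnlg was highest, and the same array was lowest for Retnla, a gene of alternatively activated macrophages and fat, at 7.60.

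Elane, neutrophil elastase of the primary granule, passed the background through its Cbl-b-/- arrays. It stood at 5.55, 5.38 and 5.66 in the Cbl-b-/- arrays, against 5.11, 5.37 and 5.30 in the WT arrays. All 3 Cbl-b-/- values lay above all 3 WT values, with Cbl-b-/- replicate 2 and WT replicate 2 nearly equal. The means were 5.53 ± 0.14 (SD, n = 3) in Cbl-b-/- skin and 5.26 ± 0.13 (SD, n = 3) in WT skin. The WT mean was not above background, so the difference of 0.27 between these measured log2 values (SE 0.11, adjusted p = 0.749 and unadjusted p = 0.0465, limma) is not a fold change of the transcript. By the row-by-row test that the methods name, the unadjusted p was 0.0714, and the exact two-sided permutation p was 0.10, the smallest that 3 against 3 arrays can give. Elane exceeded the 95th percentile of the receptor rows in 3 of 6 arrays and the 99th percentile in 0, and its genotypes overlapped once each array was centred on its median or cyclic loess was applied.

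Mpo, myeloperoxidase of the primary granule, stood at 5.46, 5.19 and 5.16 in the Cbl-b-/- arrays, against 4.97, 5.16 and 5.13 in the WT arrays. These values were near or under the 95th percentile of the receptor rows, which Mpo exceeded in 1 array, and the genotypes overlapped. With both genotype means under background, no fold difference is given for Mpo.

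The 3 members of the secondary granule were also not above background on average. Camp, the cathelicidin antimicrobial peptide, stood at 5.10, 5.28 and 5.26 in the Cbl-b-/- arrays, against 5.18, 5.33 and 5.43 in the WT arrays. Ltf, lactoferrin, an iron-binding protein, stood at 4.27, 4.41 and 4.35 in the Cbl-b-/- arrays, against 4.36, 4.12 and 4.17 in the WT arrays. Ngp, neutrophilic granule protein, which is related to the cathelicidins and cystatins, stood at 3.97, 4.38 and 3.95 in the Cbl-b-/- arrays, against 3.96, 3.93 and 3.85 in the WT arrays. The genotypes overlapped in all 3 genes, and Ltf and Ngp exceeded the 95th percentile of the receptor rows in 0 of 6 arrays. Camp exceeded it in 2 arrays, both WT. Ltf and Ngp, like Csf3r and Retnlg, had their highest value in Cbl-b-/- replicate 2, but under background. For Ltf that value was close to the 4.36 of WT replicate 1.

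**Figure D1:**
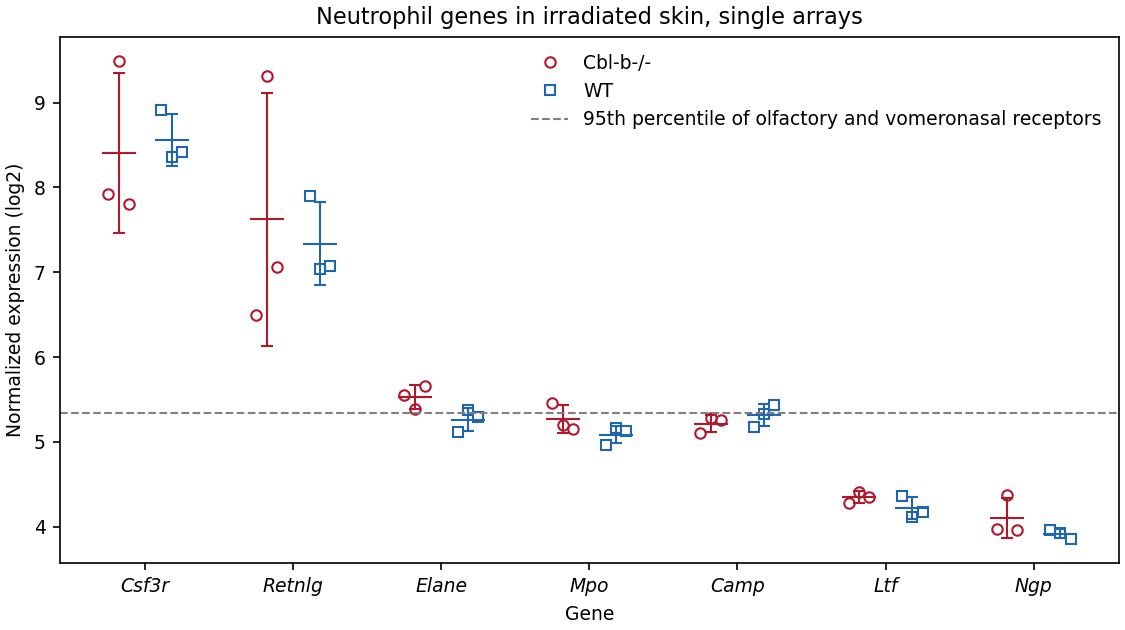
Normalized expression (log2, vertical axis) of the 7 measured genes (horizontal axis) 24 h after UVB, with circles for Cbl-b-/- mice and squares for WT mice. Each point is 1 mouse, the long bar of each group is its mean and the whiskers reach 1 SD (n = 3), and the dashed line is the mean 95th percentile of the olfactory and vomeronasal receptor rows, at 5.34. Csf3r and Retnlg lie well above the line with 1 Cbl-b-/- array far over the others, the points of Mpo and Camp lie around it, and those of Ltf and Ngp under it.

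Together, 0 of the 7 measured genes met the study's thresholds in limma, where 1.22% of all rows did so. An unadjusted p under 0.05 was reached by 1 of the 7 (Elane, whose WT mean was not above background) and by 6.55% of all rows. At an adjusted p under 0.05, 0 of the 7 passed and 0.00281% of all rows, and by the methods' test 0 of the 7 passed at an unadjusted p under 0.05. The genotypes did not overlap in 1 of the 7 genes, again Elane, against 13.5% of all rows. Above background were 3 of the 7 by the 95th percentile of the receptor rows and 2 of the 7 by their 99th percentile.

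The wider set of neutrophil genes comprised 115 genes in lists by role, of which 104 were measured and 88 were above background. Of the 104, 1 met the study's thresholds as higher (Ptgs2, against 0.276% of all rows), 1 as lower (Lcn2, against 0.945%) and 102 did not, and by the methods' test 0 met them. The median log2 fold change of the 104 was 0.021, against 0.020 over all rows. Over the 88 above background it was −0.055, against 0.013 over all rows above background. Of these 88, 56.8% lay below 0, against 46.6% of such rows. An unadjusted p under 0.05 was reached by 11 of the 104 in limma (6.55% of all rows) and by 8 with the methods' test (6.98% of all rows), and an adjusted p under 0.05 by 0.

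Lcn2 encodes lipocalin 2, which binds bacterial siderophores and is made by keratinocytes as well as being stored in secondary granules. It stood at 10.46, 10.70 and 9.59 in the Cbl-b-/- arrays, against 11.38, 11.17 and 10.73 in the WT arrays. Lcn2 fell below every WT value in each Cbl-b-/- array, with a log2 fold change of −0.85 (SE 0.31, adjusted p = 0.749, limma). It was the single gene of 15 in the list of secondary and tertiary granules that met the thresholds, and its unadjusted p was 0.0944 by the methods' test. Lcn2 missed the thresholds without Cbl-b-/- replicate 3 (−0.52), WT replicate 1 (−0.70) or WT replicate 2 (−0.81). Mmp8, neutrophil collagenase, stood at 6.27, 8.13 and 5.45 in the Cbl-b-/- arrays, against 8.56, 7.43 and 7.13 in the WT arrays, which overlapped (log2 fold change −1.09, standard error 0.71). For Chil3, a chitinase-like protein of neutrophils and macrophages, the Cbl-b-/- mean was not above background, with Cbl-b-/- replicate 3 at 4.17. Its difference of −0.78 (SE 0.53) between measured log2 values is thus not a fold change of the transcript. Mmp8 (−1.85) and Chil3 (−1.25) met the thresholds as lower, as Lcn2 did, when Cbl-b-/- replicate 2 was left out. That array was singled out after its values were seen. With another array left out, the differences rose as far as −0.51 for Mmp8 and −0.18 for Chil3. The list's median was −0.098 in all 6 arrays and −0.16 without that array, and 11 of its 15 genes were above background.

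Ptgs2, cyclooxygenase 2, which makes prostaglandins in keratinocytes and leukocytes, was the gene that met the thresholds as higher. It stood at 8.35, 9.59 and 8.71 in the Cbl-b-/- arrays, against 8.17, 8.35 and 7.60 in the WT arrays. The log2 fold change was 0.84 (SE 0.35, adjusted p = 0.749, limma), and without Cbl-b-/- replicate 2 it was 0.49 and under the fold threshold. Ptgs2 also missed the thresholds without Cbl-b-/- replicate 3 (0.93), WT replicate 1 (0.91) or WT replicate 3 (0.62), and with median centring or array weights (0.58). It was 1 of 20 measured genes of the mature neutrophil's cytosol and mediators, whose median was 0.13, and −0.14 without Cbl-b-/- replicate 2. In the same list S100a8, a subunit of calprotectin, stood at 7.76, 10.32 and 6.60 in the Cbl-b-/- arrays, against 8.84, 8.76 and 9.02 in the WT arrays. Stfa2 and Stfa3, stefins that inhibit cysteine proteases, had log2 fold changes of −0.66 (SE 0.94) and 0.61 (SE 0.71), and of −1.82 and −0.21 without Cbl-b-/- replicate 2. The WT arrays of S100a8 lay close together, between the highest and the 2 lower Cbl-b-/- arrays.

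Among receptors, 18 of 22 listed genes had a row, 0 of them met the thresholds and the median log2 fold change was −0.12. Ptafr, the receptor for platelet-activating factor, stood at 8.04, 8.27 and 8.06 in the Cbl-b-/- arrays, against 7.86, 7.43 and 7.66 in the WT arrays. Its genotypes did not overlap, and its log2 fold change of 0.47 (SE 0.13, adjusted p = 0.695, limma) was under the fold threshold. Cxcr2, the chemokine receptor that guides neutrophils to CXCL1 and CXCL2, stood at 8.82, 10.31 and 8.34 in the Cbl-b-/- arrays, against 9.38, 9.46 and 9.10 in the WT arrays, the same order of arrays at the top and the bottom as Csf3r. Clec4e, a receptor for mycobacterial glycolipid and dead cells, and Trem1, an amplifier of inflammatory signals, had log2 fold changes of −0.71 (SE 0.56) and −0.37 (SE 0.73). In the fit without Cbl-b-/- replicate 2, an array singled out after its values were seen, 4 receptor genes met the thresholds as lower. They were Csf3r, Cxcr2 (−0.73), Clec4d (−0.90) and Clec4e (−1.30), against 1.63% of all rows lower in that fit. The list's median was then −0.35.

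The primary granule list, to which Mpo and Elane belong, had 9 measured genes and 0 that met the thresholds. Only 3 of these 9 were above background (Elane, Ctsc and Serpinb1a). In 4 of the 9 (Elane, Ctsg, Bpi and Prss57) every Cbl-b-/- array was above every WT array, and 0 lay the other way, as 4.89% of all rows did. Over the olfactory and vomeronasal receptor rows the same was true of 11.2% of rows higher and 2.31% lower, and of 8.66% of all rows higher, and the part of this low-level shift in the list's counts was not tested. Ctsc, the protease that activates granule serine proteases, and Serpinb1a, an inhibitor of elastase, stood at log2 fold changes of −0.0037 (SE 0.14) and −0.21 (SE 0.23).

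The other lists held no gene past the thresholds in all 6 arrays. In the resistin family (4 genes, 3 above background) the median log2 fold change was 0.34. Among cathelin-like and cystatin-like genes (5 of 8 measured, with Camp, Ngp and Csta1 among them) it was 0.18, and −0.13 without Cbl-b-/- replicate 2. These 2 medians were the values of Ngp and of Camp, which were not above background. Over the 3 genes of that list above background the 6-array median was 0.19. In the integrin and surface list (12 genes, median −0.059), Itgam, the CD11b chain, had a log2 fold change of −0.59 (SE 0.39), Pirb, an inhibitory receptor, of −0.51 (SE 0.29), and Selplg, the selectin ligand, of 0.31 (SE 0.22). Cbl-b-/- replicate 2, an array singled out after its values were seen, was the highest for 9 of these 12 genes. In the fit without it, 5 of the 12 met the thresholds as lower, against 1.63% of all rows. They were Itgam (−0.96), Pirb (−0.78), Siglece (−0.70), Cd300lf (−0.69) and Ly6g (−0.64), and the list's median was −0.48. In the NADPH oxidase (5 of 6 genes measured, median 0.015, and −0.15 without Cbl-b-/- replicate 2), Ncf4, Cyba and Ncf1 stood between −0.14 and 0.13. Among ligands that attract neutrophils, 13 of 16 genes were measured, with a median of 0.064, and of −0.095 without Cbl-b-/- replicate 2. Over the 9 of these ligands above background the 6-array median was −0.062. Cxcl5, Cxcl3 and Cxcl2 stood at −0.59 (SE 1.13), 0.49 (SE 0.33) and −0.21 (SE 0.95). Cxcl5 stood at 5.10, 8.57 and 4.50 in the Cbl-b-/- arrays, against 5.28, 7.33 and 7.34 in the WT arrays. It was thus highest in Cbl-b-/- replicate 2 as well, and under background in 2 of the Cbl-b-/- arrays. Without that array Cxcl5 met the thresholds as lower (−1.85).

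Of the 8 transcription factor genes of granulocytes, 0 met the thresholds, and the median was −0.051, and −0.14 without Cbl-b-/- replicate 2. Cebpd, C/EBP delta, an acute-phase factor, stood at 7.23, 7.53 and 7.11 in the Cbl-b-/- arrays, against 7.76, 7.97 and 7.73 in the WT arrays. Its log2 fold change of −0.53 (SE 0.13, adjusted p = 0.685, limma) was without overlap and under the fold threshold, and it met the thresholds without Cbl-b-/- replicate 2 (−0.65) and with array weights (−0.59). Cebpa, C/EBP alpha, which is also expressed by keratinocytes and fat cells, stood at 9.37, 9.27 and 9.45 in the Cbl-b-/- arrays, against 9.12, 9.20 and 8.97 in the WT arrays. Cux1, a repressor of lactoferrin transcription, had a log2 fold change of −0.40 (SE 0.27).

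**Figure D2:**
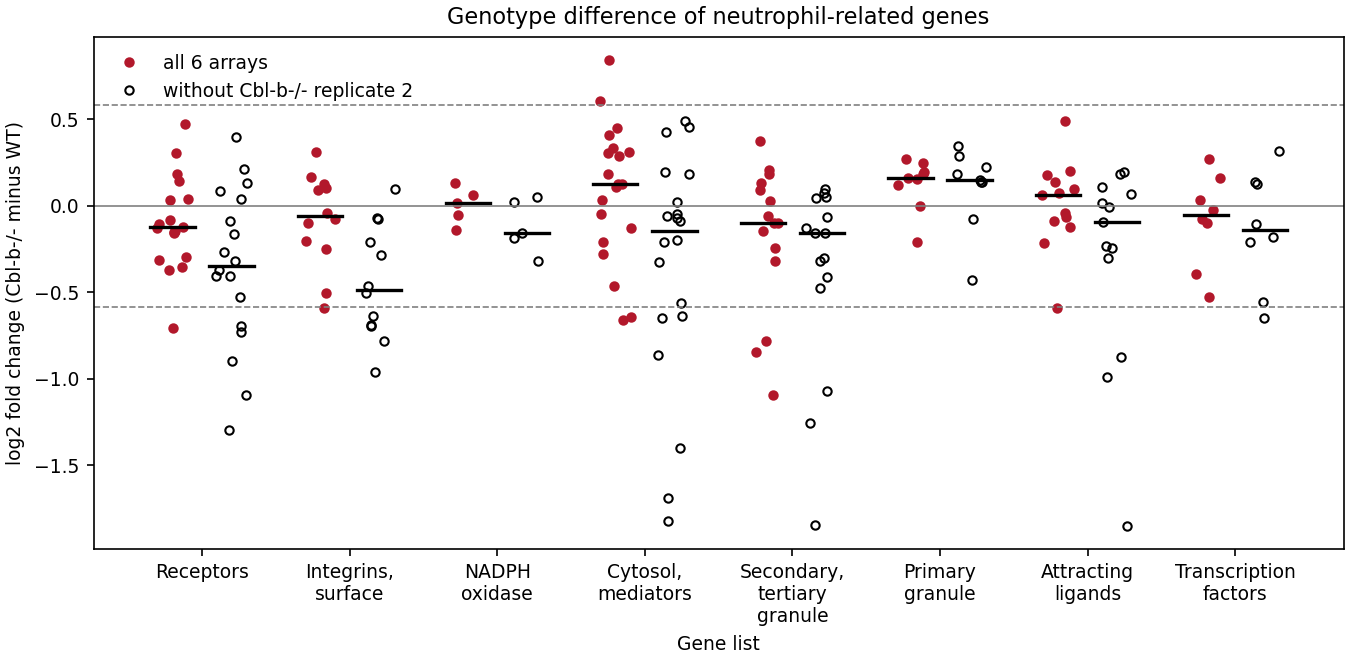
Log2 fold change (Cbl-b-/- minus WT, vertical axis) of the measured genes of 8 neutrophil lists (horizontal axis), from all 6 arrays (filled circles) and without Cbl-b-/- replicate 2 (open circles). Short bars are list medians and dashed lines the 1.5-fold threshold. The medians of the 6-array fit stay between −0.12 and 0.16 over all measured genes, and the open circles reach lower, to −1.85 for Mmp8 and Cxcl5. The highest of these medians, of the primary granule list, was −0.0037 over its 3 genes above background.

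Many of the neutrophil genes peaked in the same array. Of the 88 genes above background, 47 (53.4%) were highest in Cbl-b-/- replicate 2, against 19.2% of all rows above background. In Cbl-b-/- replicate 3, 45 (51.1%) were lowest, against 23.0% of all such rows. WT replicate 1 was highest for 21 (23.9%, against 16.1%), among them all 5 measured genes of the NADPH oxidase. Cbl-b-/- replicate 2 was highest for 1 of the 8 transcription factor genes and for 0 of the 3 primary granule genes above background. In 37 of the 88 genes (42.0%) the pooled SD was above 0.456, the 95th percentile over rows above background. These counts describe which mice were high and are no comparison of the genotypes.

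The 7 defining markers of the neutrophil (Ly6g, S100a8, S100a9, Csf3r, Cxcr2, Retnlg and Mmp8) were all above background on average. Their mean level was 7.25, 9.36 and 6.79 in the Cbl-b-/- arrays, against 8.40, 7.95 and 7.96 in the WT arrays. In Cbl-b-/- replicate 2, 6 of the 7 were highest, and 6 of the 7 were lowest in Cbl-b-/- replicate 3. Ly6g, the surface antigen that defines mouse neutrophils, stood at 5.54, 7.59 and 5.06 in the Cbl-b-/- arrays, against 6.35, 5.67 and 5.79 in the WT arrays. The 2 extremes of the 6 mice were thus both Cbl-b-/-, and 0 of the 7 markers met the thresholds between the genotypes.

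**Figure D3:**
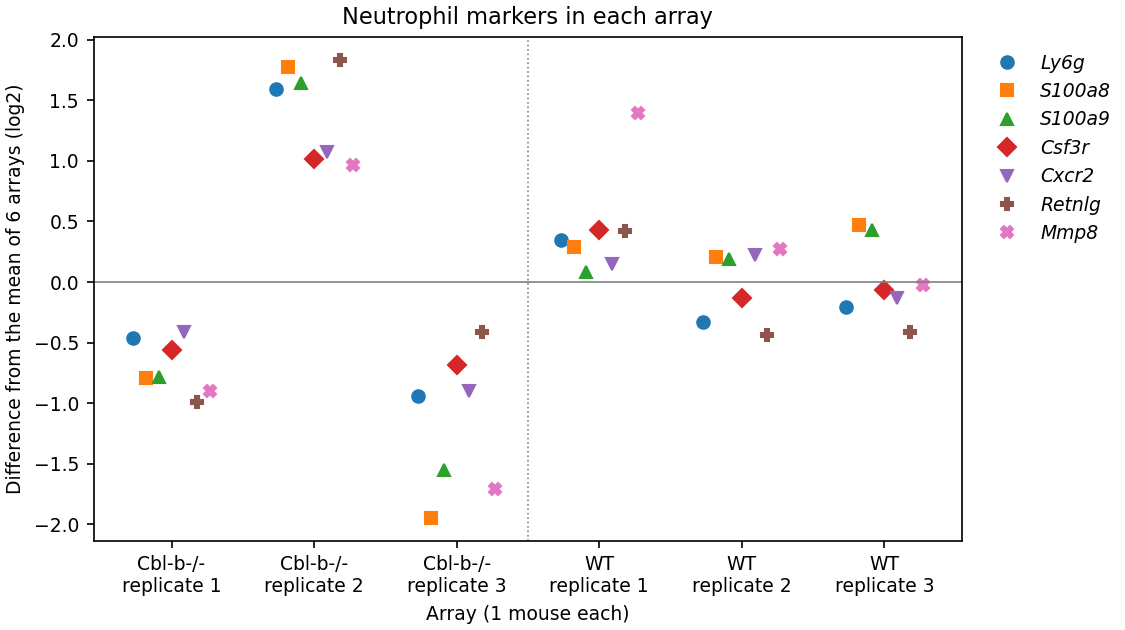
Difference of each array from the 6-array mean (log2, vertical axis) for the 7 defining neutrophil markers, in the 3 Cbl-b-/- arrays and the 3 WT arrays (horizontal axis, 1 mouse each). All 7 lie above 0 in Cbl-b-/- replicate 2 and below 0 in Cbl-b-/- replicates 1 and 3. The WT arrays lie closer to 0, apart from Mmp8 in WT replicate 1.

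Without Cbl-b-/- replicate 2, 17 of the 104 neutrophil genes (16.3%) met the thresholds as lower and 0 as higher, against 1.63% of all rows lower, and 0 of the 104 passed at an adjusted p under 0.05. The median log2 fold change of the 104 was then −0.16, against 0.021 over all rows. Among the 17 were Csf3r, S100a8 (−1.69), S100a9 (−1.40), Mmp8 (−1.85), Stfa2 (−1.82), Cxcr2 (−0.73) and Ly6g (−0.64). Without Cbl-b-/- replicate 3 the picture turned, with 4 of the 104 higher (Mmp9, Acod1, Osm and Cxcl3, against 0.337% of all rows), 0 lower and a median of 0.15. Each of these counts was obtained with 1 mouse left out, singled out here after its values were seen.

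Markers of other cell types moved with the same array. The adipocyte markers (5 of 6 measured) had a mean level of 9.39, 7.56 and 9.22 in the Cbl-b-/- arrays, against 8.77, 8.50 and 8.0 in the WT arrays. The skeletal muscle markers (6 genes) had 10.64, 9.53 and 10.56 in the Cbl-b-/- arrays, against 10.67, 10.59 and 9.88 in the WT arrays. Cbl-b-/- replicate 2, highest in neutrophil markers, was thus lowest in fat and muscle markers, and their part in the levels of the neutrophil genes was not tested.

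Monocyte markers (4 of 5 measured) had a mean level of 7.98, 8.28 and 7.87 in the Cbl-b-/- arrays, against 8.77, 8.15 and 7.92 in the WT arrays. Macrophage markers (8 genes) had 8.74, 8.99 and 8.95 in the Cbl-b-/- arrays, against 9.41, 8.76 and 8.56 in the WT arrays, and 7 of the 8 were highest in WT replicate 1. Neither list had its peak in the array with the most neutrophil transcripts. Keratinocyte markers (6 of 7 measured) ranged from 11.43 to 11.63 in the Cbl-b-/- arrays and from 11.14 to 11.60 in the WT arrays. Hair follicle markers (10 genes) ranged from 5.82 to 7.31 in the Cbl-b-/- arrays and from 5.62 to 9.83 in the WT arrays, all 10 highest in WT replicate 3. Of the eosinophil markers, 4 of 6 were measured. Siglecf and Ccr3 were above background on average, in 6 and 5 of 6 arrays, and the granule genes Prg2 and Epx were not.

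**Figure D4:**
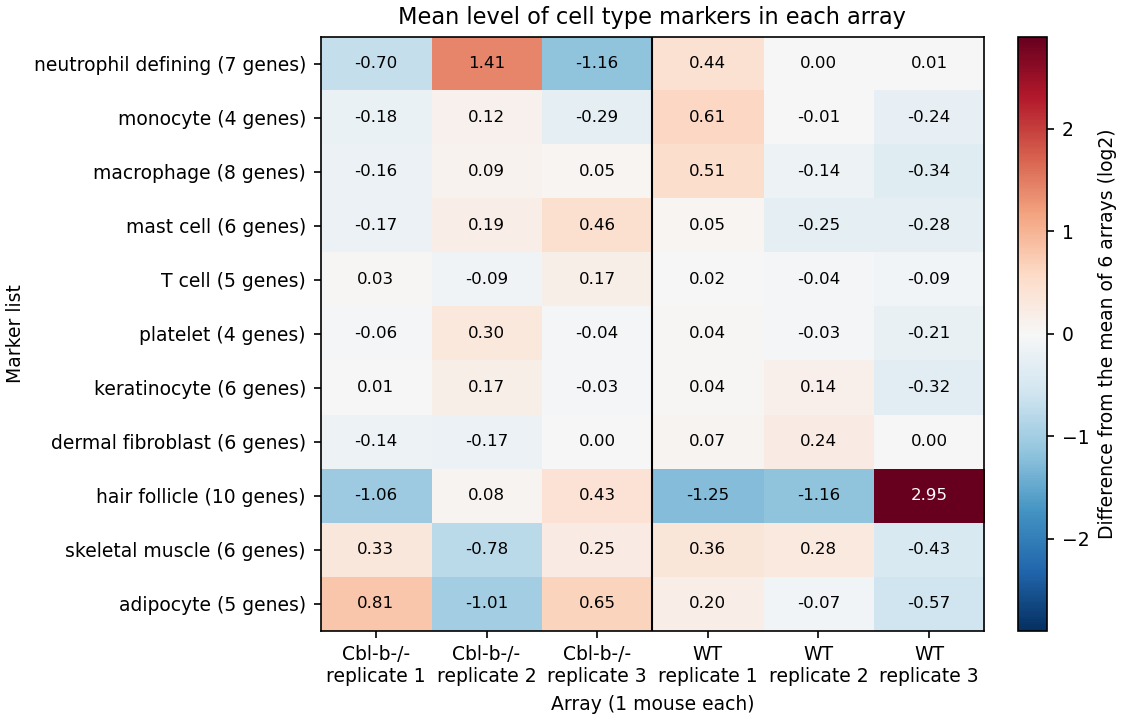
Difference of the mean marker level from its 6-array mean (log2, colour and printed value) for 11 cell type lists (vertical axis) in the 3 Cbl-b-/- arrays and the 3 WT arrays (horizontal axis). Neutrophil markers stand at 1.41 in Cbl-b-/- replicate 2 and at −1.16 in Cbl-b-/- replicate 3, adipocyte markers at −1.01 in Cbl-b-/- replicate 2, and hair follicle markers at 2.95 in WT replicate 3.

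The genes whose pattern over the 6 arrays was most like the mean of the 7 measured genes were taken from 1245 rows above background that covered at least a 2-fold range. The mean profile, as the difference from each gene's own mean, was −0.19, 0.48 and −0.12 in the Cbl-b-/- arrays, against 0.045, −0.11 and −0.10 in the WT arrays. Tnfsf14, a TNF family ligand, had the highest likeness, with a Pearson r of 0.986 over 6 arrays and of 0.914 without Cbl-b-/- replicate 2. Cd33, a sialic acid-binding receptor of myeloid cells, had 0.963 and 0.934, and Ly6g 0.949 and 0.757. Tnfsf14 stood at 6.12, 7.33 and 6.12 in the Cbl-b-/- arrays, against 6.60, 6.36 and 6.25 in the WT arrays. Without the highest array the r of these 3 thus stayed at 0.757 or above. They were picked for a high r over all 6 arrays, and Ly6g was above background in 5 of 6 arrays.

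Col8a1, a collagen chain, had an r of 0.925 over 6 arrays and of −0.069 without Cbl-b-/- replicate 2. For Tubb2b, a beta tubulin, these were 0.933 and 0.315, and for Entpd7, a nucleotide hydrolase, 0.963 and 0.616. Slc16a3, a lactate transporter, had 0.931 and 0.777, the second above that of Ly6g. P4ha3, a subunit of prolyl hydroxylase, had 0.972 over 6 arrays and was above background in 2 of them, so no r is given without its highest array. The likeness of Col8a1 and Tubb2b rested largely on Cbl-b-/- replicate 2, and for P4ha3 this is not read. All these correlations are over 6 mice that share the same high array and are given as a description.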

How the data were processed

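Whole RNA from the back skin of 6 irradiated mice (3 Cbl-b-/-, 3 WT) was hybridized to the Mouse Gene 1.0 ST array of Affymetrix. Per the labels and methods, the authors checked the arrays in Affymetrix Expression Console and normalized them with RMA (robust multichip average) in Partek (version 6.5 in the submitters' processing notes), and the deposited values are log2, 1 per array and row. RMA equalizes the arrays' distributions, so a shift of all genes cannot be seen, and it compresses differences of dim genes. No read depth applies to arrays; the number of arrays limits the precision. The genome build of the probe annotation is not given in the sources used here.

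Values were used as deposited. Of 35556 rows, 21789 carry 1 gene symbol, 1621 several and 12146 none; a gene was named only from a row with 1 symbol (the row with the highest mean if several). Genotypes were compared as Cbl-b-/- minus WT with limma 3.58.1 (lmFit and eBayes, R 4.3.3), with Benjamini-Hochberg adjustment over all rows. A gene met the study's thresholds where its unadjusted p from this fit was under 0.05 and its difference 1.5-fold or more. A row was above background where its mean exceeded the mean 95th percentile of the olfactory and vomeronasal receptor rows. The fits were tested on simulated data. The text names the 9 genes, Cblb, each list's genes past the thresholds and its 3 with the largest difference above background, and the 8 genes most like the members; other genes, such as Ctsg, Bpi, Prss57, Cxcr2, S100a9, Mmp9, Acod1 and Osm, were named after their values were seen. The genes and lists were chosen with earlier results of these data known. Alternatives were the ANOVA, median centring, cyclic loess, a filter on dim rows, an intensity trend, array weights, a replicate block and each array left out. Promoter sequences came from RefSeq tables (GRCm38.p6), which held all 9 genes.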

Additional observations from a re-analysis of the deposited data

How the results depend on the processing

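Under the ANOVA, median centring, cyclic loess, the filter on dim rows, an intensity trend and array weights, the count of measured members past the thresholds was 0 each time, and Csf3r, Retnlg and Elane kept their sign. Members whose genotypes do not overlap numbered 0 with median centring and 0 with cyclic loess. Neutrophil genes past the thresholds numbered 0 under the ANOVA and 1 with median centring, and all rows 267 under the ANOVA and 235 with the filter, against 434 with the values as deposited. With array weights Ptgs2 missed and Cebpd met the thresholds, and the sign turned for Cd33 (−0.088), Ctsc (0.027) and Cxcl2 (0.34). For each of these the cause was not tested. With arrays left out 1 at a time, the members past the thresholds numbered 0 to 1, the neutrophil genes 1 to 17 and all rows 428 to 790. Members without overlap numbered 1 to 4, a count that is not read. Fewer arrays separate more easily, no share of all rows was taken beside it, and 4 of the 7 measured members were not above background. The median of the neutrophil genes ran from −0.16 to 0.15. List medians ran from −0.16 to 0.031 (secondary and tertiary granule), −0.35 to 0.099 (receptors), −0.48 to 0.18 (integrins and surface) and −0.15 to 0.24 (NADPH oxidase). They ran from −0.14 to 0.36 (cytosol and mediators), −0.095 to 0.18 (ligands), −0.14 to 0.0046 (transcription factors) and −0.13 to 0.26 (cathelin-like and cystatin-like). Log2 fold changes ran from −0.70 to 0.15 for Csf3r and from −0.56 to 0.85 for Retnlg, both lowest without Cbl-b-/- replicate 2. The sign also turned for Cd33 (−0.50 to 0.55), Col8a1 (−0.034 to 1.02), Csta1 (−0.045 to 0.34), Ctsc (−0.077 to 0.13), Cxcl2 (−0.99 to 0.90), Cxcl5 (−1.85 to 0.18), Entpd7 (−0.19 to 0.36), Ly6g (−0.64 to 0.63), Ncf1 (−0.073 to 0.28), Ncf4 (−0.32 to 0.0038), P4ha3 (−0.13 to 0.63), Retn (−0.94 to 0.10), Retnla (−0.30 to 0.92), S100a8 (−1.69 to 0.17), Slc16a3 (−0.098 to 0.36), Stfa2 (−1.82 to 0.19), Stfa3 (−0.21 to 1.30), Tnfsf14 (−0.28 to 0.32), Trem1 (−1.09 to 0.46), Tubb2b (−0.25 to 0.39). Some genes that were lower past the thresholds without Cbl-b-/- replicate 2 kept their sign throughout. Among them were Mmp8 (−1.85 to −0.51), Chil3 (−1.25 to −0.18), Clec4e (−1.30 to −0.071), Itgam (−0.96 to −0.22) and Pirb (−0.78 to −0.27). No member had another row of its own, so that alternative was not run.

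Replicate numbers are shared between the genotypes, and the deviations of same-numbered arrays correlated at 0.233, 0.0925 and 0.247. Arrays with different numbers ran from −0.327 to 0.232. Whether a shared number marks a pair or a batch is not given in the sources used here, and was not tested. Of the 6 arrays, 5 correlated best with their own number, a hint from the data and not from the design, and WT replicate 2 did so with Cbl-b-/- replicate 1, at 0.232. With the replicate number as a block, 453 rows, 2 neutrophil genes and 0 members met the thresholds. Limits lie in signal as well: Mpo, Camp, Ltf and Ngp were not above background, and a change in them would not have been detectable where their RNA lies under it.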
